A study of Callithrix jacchus with 3 samples.

Results

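Sertoli cell genes were examined in RNA-seq of adult testis from the New World monkey Callithrix jacchus, the common marmoset. The 6 genes were set by name: CLU and CLDN11 (products of the mature cell), WT1 and GATA4 (transcription factors), and AMH and AMHR2 (a hormone and its receptor). All 6 had a protein-coding entry, among 12199 named protein-coding symbols of the table, and WT1 was the only member with 2 entries, which were summed. The series also holds total small RNA from a wild-type animal aged 41 months and small RNA recovered with the PIWI protein MARWI from wild-type testes of 41 and 51 months, neither of which gives a value per gene. The testis RNA-seq is labelled as 2 replicates from wild-type animals of 41 and 51 months, with no treatment, and was deposited as 1 column of RPKM, reads scaled for transcript length and for the size of the library. Replicate errors and tests could therefore not be given, the ages cannot be compared, and the depth behind each value is unknown.

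Sertoli cells are the somatic nurse cells of the seminiferous tubule. They enclose the developing germ cells, feed them, and seal the blood-testis barrier between each other with tight junctions. WT1 and GATA4 are needed early, when the gonad and the Sertoli lineage form, and remain in use in the adult cell. Anti-Müllerian hormone, the product of AMH, is made by fetal and immature Sertoli cells and makes the Müllerian ducts regress in the male fetus. In humans and mice its production falls at puberty, as meiosis begins, so AMH is used as a marker of Sertoli cell maturity. The hormone acts through the type II receptor encoded by AMHR2, which pairs with type I receptors shared with the bone morphogenetic proteins and passes the signal to SMAD proteins.

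The 3 kinds of gene lay at separate levels. CLU and CLDN11 were among the highly expressed genes of the tissue, WT1 and GATA4 were near its median, and AMH and AMHR2 were in its lowest part. Summed per kind, the products of the mature cell had 95.7 RPKM, the transcription factors 5.59 RPKM and the AMH axis 0.158 RPKM. The mature-cell sum was 17.1 times the transcription factor sum and 605 times that of the AMH axis, and the transcription factor sum was 35.4 times that of the AMH axis. With the higher WT1 entry alone in place of the sum, the first ratio was 20.2 and the last 29.9. At a limit of 1 RPKM, 4 of the 6 members were detected, against 63.8% of all named protein-coding symbols. At 0.1 RPKM they were 5 of 6, against 88.5% of symbols, and at 5 RPKM 2 of 6, against 35.9%. AMHR2 was thus the member below 0.1 RPKM, and CLU and CLDN11 those above 5 RPKM. The members were chosen with these levels known, so these counts describe them and test nothing.

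**Figure D1:**
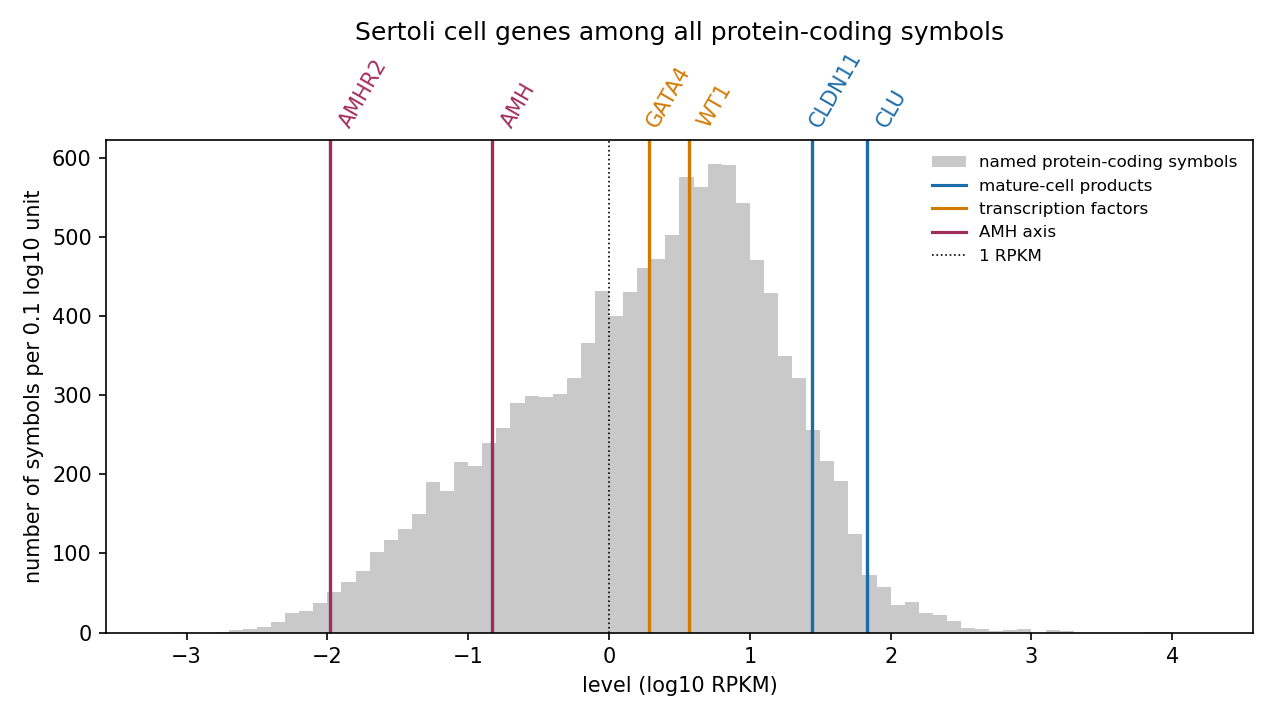
Number of named protein-coding symbols (vertical axis) by level in log10 RPKM (horizontal axis) in the single testis RNA-seq column, with the 6 members as coloured lines and 1 RPKM as a dotted line. AMHR2 and AMH lie in the left tail, GATA4 and WT1 near the middle, and CLDN11 and CLU on the right, from 0.0104 to 68.0 RPKM.

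CLU encodes clusterin, a secreted chaperone glycoprotein that is one of the main proteins released by Sertoli cells and that coats sperm. Its entry read 68.0 RPKM and ranked 263 of the 12199 symbols, so that 97.8% of symbols were lower. The entry lies on chromosome 13 from 10698310 to 10715743 on the plus strand, as the table gives it. The genome build is not given in the sources used here. CLU was 27.9 times the median symbol, which had 2.44 RPKM. Just above it lay 2 entries without a resolved gene name, with 68.98 and 68.91 RPKM, and just below it CFAP276 with 67.7 RPKM and CSNK1G1 with 67.05 RPKM. Levels that close cannot be ordered without replicates.

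CLDN11 encodes claudin-11, the tight junction protein that forms the strands of the barrier between Sertoli cells. Its entry read 27.7 RPKM and ranked 977, with 92.0% of symbols lower. It lies on chromosome 17 from 8502065 to 8519130 on the minus strand. The table names it by a LOC number, which the RefSeq gene table resolves to CLDN11. CLU was 2.46 times CLDN11. The symbols nearest to CLDN11 in level were SRPK1 and CCNG1 above it, with 27.72 and 27.71 RPKM, and SYMPK and RAP1B below it, with 27.69 and 27.65 RPKM.

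Among the claudins, CLDN11 stood first. Of 19 other claudins listed, 8 had a named entry. CLDN10 had 7.30 RPKM and CLDN16 had 2.50 RPKM, and the other 6 were below 1 RPKM, from 0.0151 to 0.132 RPKM. CLDN11 was 3.79 times CLDN10, and it made up 73.0% of the RPKM summed over the 9 claudins with an entry. The value of 0.132 RPKM belongs to an entry that RefSeq names CLDN6 and the Ensembl gene table CLDN9. CLDN3, a claudin of the mouse blood-testis barrier, had 0.0240 RPKM. CLDN7, CLDN20, CLDN14 and CLDN18 had 0.123, 0.0878, 0.0467 and 0.0151 RPKM. All the claudins below 1 RPKM except CLDN18 carry gene IDs of a different kind from that of CLDN11, as described below.

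Other genes of the blood-testis barrier spanned a wide range of levels. Of 14 listed, 8 had an entry under their names and 6 were at 1 RPKM or more, 75% of those with an entry, near the 63.8% of all symbols. The median of the 8 was 4.75 RPKM, beside 2.44 RPKM over all symbols. JAM3 and JAM2, junctional adhesion molecules found on both Sertoli and germ cells in mice, had 54.4 and 23.8 RPKM. OCLN (occludin) had 6.77 RPKM, F11R, another junctional adhesion molecule, 6.28 RPKM, GJA1, the gap junction protein connexin 43, 3.22 RPKM and TJP1, a scaffold of tight junctions, 3.11 RPKM. CXADR, an adhesion receptor, had 0.980 RPKM. Entries named CADH2_CALJA in the table, the protein entry name of cadherin-2 (CDH2), an adhesion protein between Sertoli and germ cells, summed to 16.5 RPKM and are not in these counts. With them, 9 of 14 had an entry and the median was 6.28 RPKM, a count added after the values were seen. CLDN11 was thus below JAM3 and above each of the other 7 barrier genes with an entry, JAM2 being nearest, and above CDH2.

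Genes tied to clusterin were also read. PSAP encodes prosaposin, another main secreted protein of Sertoli cells, and had 48.1 RPKM, 0.706 times CLU. HSF1, the heat shock factor that can switch on CLU, had 17.2 RPKM. Of the receptors that take up clusterin, LRP8 had 4.98 RPKM and LRP2 had 0.129 RPKM. Those were the 4 genes with an entry of 8 listed, with a median of 11.1 RPKM.

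WT1 encodes the Wilms tumour zinc finger protein, which maintains the Sertoli lineage. Its entries read 2.83 and 0.855 RPKM and summed to 3.68 RPKM, rank 5132, with 57.9% of symbols lower. Both entries lie on chromosome 11 on the minus strand. The first runs from 95553917 to 95596724 and the other from 95553918 to 95601324, so they share their 3′ end to within 1 nt and differ by 4.6 kb at the 5′ end. The entry with the nearer 5′ end held 76.8% of the WT1 level. Overlapping transcripts share reads, so this split depends on how the authors assigned them. The symbols nearest in level were INSR and GLA above WT1, both 3.68 RPKM, and RUNDC1 and MCM5 below it, also 3.68 RPKM.

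GATA4 encodes a zinc finger factor that works with NR5A1 and WT1 on Sertoli genes, AMH included, and is also made in Leydig cells. Its single entry read 1.91 RPKM and ranked 6571, with 46.1% of symbols lower. It lies on chromosome 13 from 6792397 to 6843927 on the minus strand. WT1 was 1.93 times GATA4 when its entries were summed and 2.83 against 1.91 RPKM when the higher entry alone was taken. The mean of the WT1 entries, 1.84 RPKM, was below GATA4, so the order of these members depends on how WT1 is counted. EMC9 and IFIT2 lay just above GATA4 with 1.91 RPKM each, and UBR2 and KRABD2 just below it, also with 1.91 RPKM.

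Relatives and cofactors of both factors were low, apart from general partners. GATA4 led the GATA genes with an entry, at 2.67 times GATA2, which had 0.715 RPKM, while GATA6 had 0.318 RPKM. It made up 64.9% of their sum. ZFPM1 and ZFPM2, the FOG cofactors of GATA factors, had 0.184 and 0.0612 RPKM, and BASP1, a corepressor of WT1, had 0.0616 RPKM. WTAP, named for binding WT1 and part of the RNA methylation complex, had 8.49 RPKM and PAWR, another WT1-binding protein, 7.48 RPKM. In all, 7 of 10 listed genes had an entry, with a median of 0.318 RPKM, beside 2.44 RPKM over all symbols. Of the 7, 2 were at 1 RPKM or more, against 63.8% of all symbols. GATA2, ZFPM1 and BASP1 carry gene IDs of a different kind from that of GATA4, as described below.

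Few other transcription factors of Sertoli cells had a named entry. They numbered 4 of 10 listed, with a median of 1.10 RPKM. DMRT1, which keeps Sertoli cells male and also acts in spermatogonia, had 7.60 RPKM, more than WT1 or GATA4. HOPX had 1.66 RPKM, SOX8, which acts beside SOX9, 0.538 RPKM, and EMX2, a factor of the early gonad, 0.0776 RPKM. A further entry that the Ensembl gene table names NR0B1, a nuclear receptor of Sertoli and Leydig cells, carries a protein accession as its name in the deposited table. It had 5.21 RPKM and is not in the counts, and with it the median was 1.66 RPKM. SOX9, NR5A1, GATA1 and LHX9 had no entry under their names. Absence from the named entries does not show that a gene was silent, because values of 0 are not listed and 959 entries are named by protein accessions or other species-coded names that were not resolved, CDH2 and CYP19A1 among them.

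AMH read 0.148 RPKM from a single entry, rank 10413, with 14.6% of symbols lower. The entry lies on chromosome 22 from 1953003 to 1955786 on the plus strand, a span of 2.78 kb. The table names it by a LOC number, and RefSeq by that number and Ensembl by its gene ID both give AMH. CLU was 460 times AMH, CLDN11 187 times, WT1 24.9 times and GATA4 12.9 times. ADCY5 and S1PR2 lay just above AMH at 0.148 RPKM, and KIRREL2 and SLC39A2 just below it, also at 0.148 RPKM.

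Genes flanking AMH ranged from well above it to below it. SF3A2, a splicing factor gene on the same strand that ends 0.479 kb before AMH, had 10.7 RPKM, 72.1 times AMH. OAZ1, the antizyme that restrains polyamine synthesis, begins 13.5 kb beyond AMH and had 29.4 RPKM. JSRP1, a gene of muscle sarcoplasmic reticulum on the other strand, lies 0.27 kb beyond AMH and had 0.0407 RPKM. No entry of the table overlapped any of the 6 members. By contrast, CLDN11 and CLU stood above all their nearest entries, among them PRKCI with 2.67 RPKM beside CLDN11 and SCARA3 with 4.83 RPKM beside CLU.

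**Figure D2:**
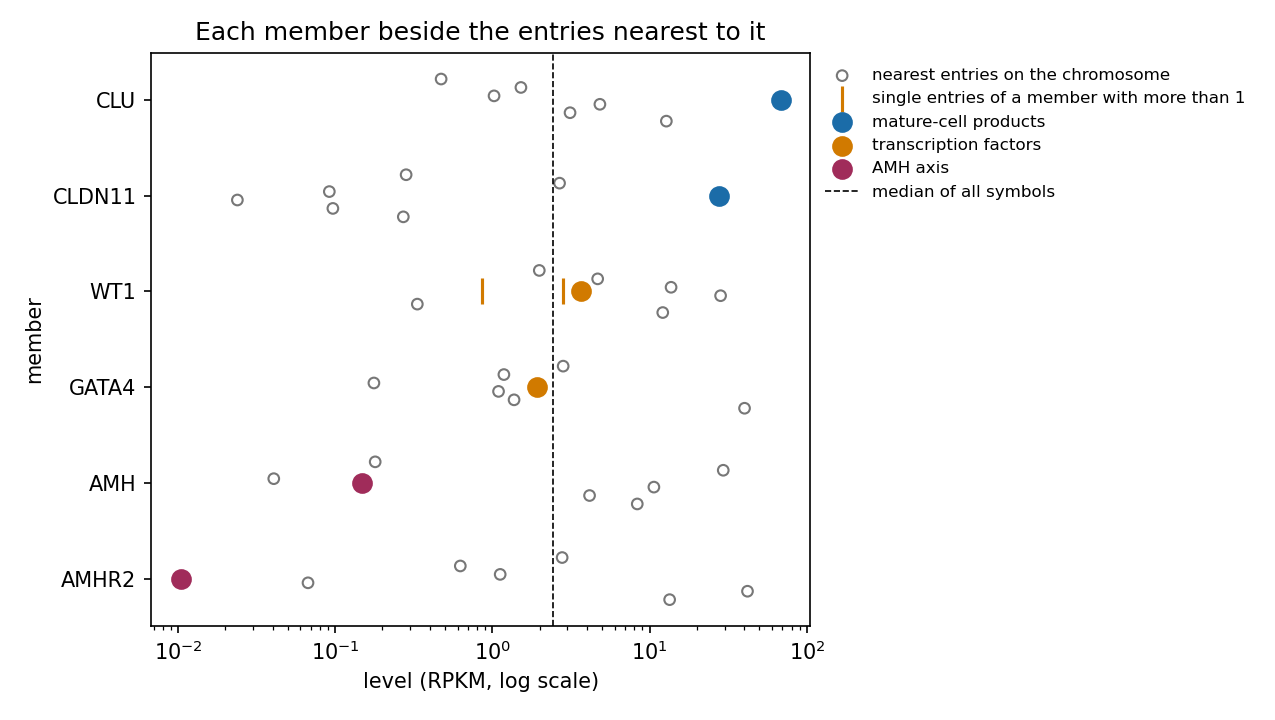
Level in RPKM on a log axis (horizontal) of each member (filled circles, coloured by kind, members on the vertical axis) and of the 6 table entries nearest to it on its chromosome (open circles, placed at different heights for legibility). Ticks mark the WT1 entries and the dashed line the median of all symbols, 2.44 RPKM. CLU and CLDN11 lie right of all their neighbours and AMHR2 left of all of its own.

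AMHR2 was the lowest member, at 0.0104 RPKM and rank 12066, with 133 symbols ranked below it. Its entry lies on chromosome 9 from 42306859 to 42317991 on the plus strand. AMH was 14.1 times AMHR2. The symbols beside it in rank included BMP15, an oocyte growth factor, with 0.0105 RPKM, and PROKR2 and NPVF, with 0.0104 RPKM each. PRR13, the entry nearest to AMHR2 and 6.88 kb away, had 1.12 RPKM, 107 times AMHR2. Table values reach down to 0.000844 RPKM, and without read counts no interval can be given for a value as low as that of AMHR2.

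Summed over their entries, the type I partners of AMHR2 were above 1 RPKM where the receptor was barely read. Of 11 listed AMH pathway genes, 7 had an entry and 6 of these were at 1 RPKM or more, against 63.8% of all symbols. The median of the 7 was 1.65 RPKM, below the 2.44 RPKM of all symbols. The type I receptors BMPR1A, ACVR1 and BMPR1B, all shared with bone morphogenetic proteins, had 4.91, 3.25 and 1.94 RPKM. BMPR1B passed 1 RPKM only as the sum of 3 entries, the highest of which had 0.920 RPKM. Summed, the type I receptors were 967 times AMHR2. SMAD4, the common partner of the signalling SMADs, had 1.50 RPKM, and the inhibitory SMAD6 and SMAD7 had 1.22 and 0.320 RPKM. PCSK5, a protease that can cleave the AMH precursor, had 1.65 RPKM. SMAD1, SMAD5 and SMAD9, which carry the AMH signal, and the protease FURIN had no entry under their names.

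Within the wider TGF-beta family, a comparison added after the levels of the members were seen, AMHR2 differed from the other type II receptors and AMH did not stand out among the ligands. All 4 other type II receptors listed had an entry, with gene IDs of a different kind from that of AMHR2, as described below. ACVR2B, ACVR2A and BMPR2, which serve activins and bone morphogenetic proteins, had 9.70, 3.78 and 3.39 RPKM, and TGFBR2, the receptor of TGF-beta, had 1.65 RPKM, still 158 times AMHR2. Of 32 other ligands listed, 15 had an entry, with a median of 0.114 RPKM. Among the 15, 3 were at 1 RPKM or more, against 63.8% of all symbols. The ligands carry gene IDs of both kinds described below. AMH was lower than 6 of the 15 and higher than 9. BMP8A had 1.84 RPKM, GDF10 1.16 RPKM and INHBA, a subunit of activin A, 1.14 RPKM.

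**Figure D3:**
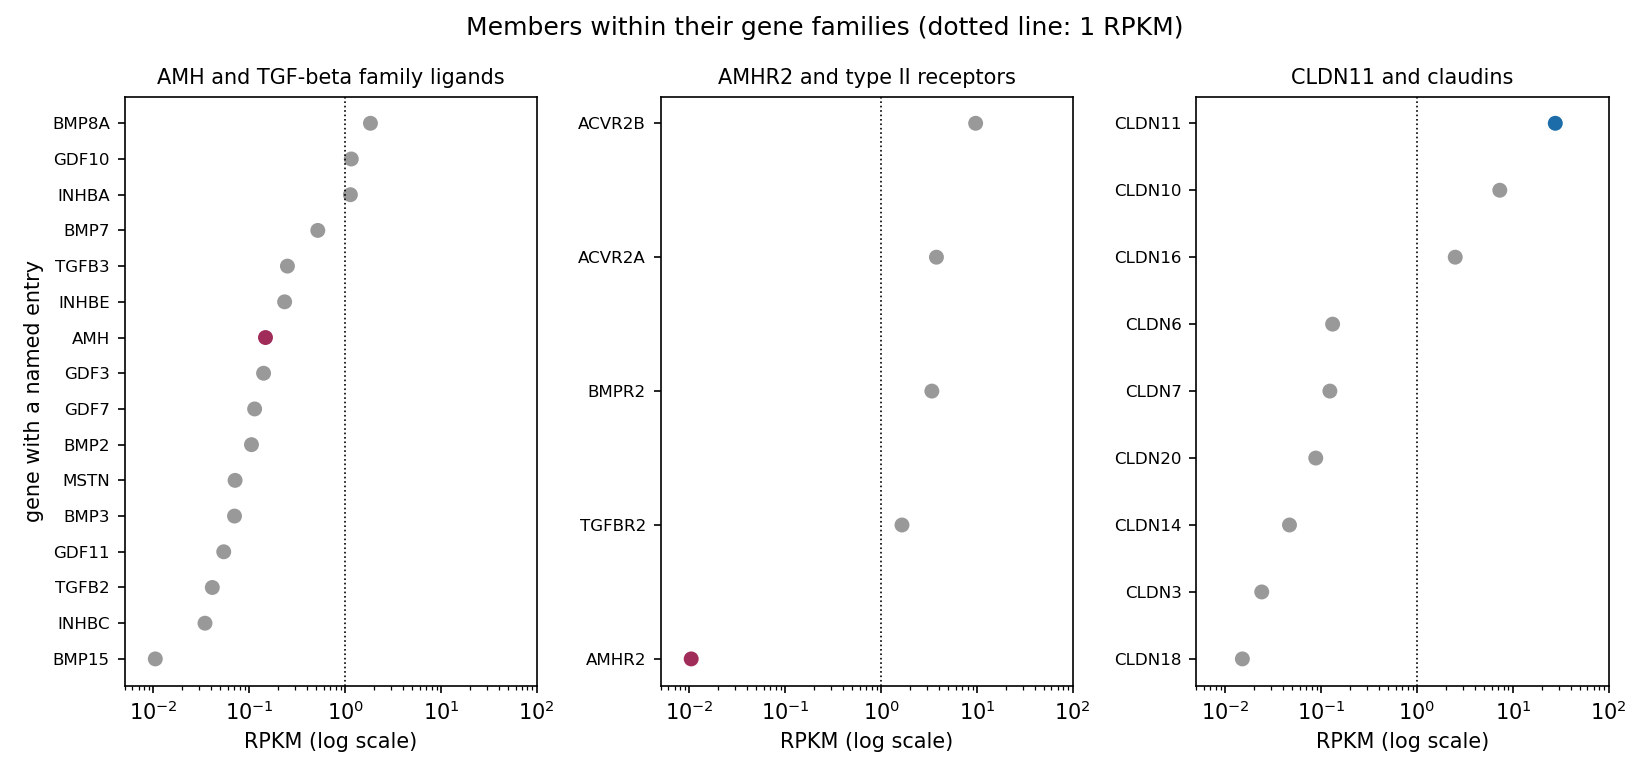
Level in RPKM on log axes (horizontal) of the genes with a named entry (vertical axis), for AMH among ligands of the TGF-beta family, AMHR2 among type II receptors and CLDN11 among claudins. The member is coloured and the dotted line is 1 RPKM. AMH, at 0.148 RPKM, sits within the ligands, AMHR2, at 0.0104 RPKM, lies below all 4 other type II receptors, and CLDN11, at 27.7 RPKM, above all other claudins with an entry.

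Other genes listed for a change as Sertoli cells mature were few in the table. Of 6 listed for a fall with maturation, PDPN (podoplanin) had 0.329 RPKM. VIM (vimentin), also on that list, had 16.5 RPKM. Adult Sertoli cells and other somatic cells make it too, so it does not mark immature cells. The median of PDPN and VIM was 8.39 RPKM and says little about maturity. KRT18, KRT8 and NCAM1 had no entry under their names. The entry named CP19A_CALJA, the protein entry name of aromatase (CYP19A1), which makes oestrogen and which Leydig and germ cells also express in other mammals, had 8.37 RPKM and is not in these counts. With it the median was also 8.37 RPKM. Another 6 were listed as rising with maturation or acting in it. Of these, TF (transferrin, which supplies iron to germ cells) had 11.7 RPKM. CDKN1B, an inhibitor of cell division, had 9.14 RPKM and GJA1 3.22 RPKM, and the median was 9.14 RPKM. How much of TF, CDKN1B and GJA1 came from cells other than Sertoli cells was not tested. Their median, close to the 8.39 RPKM of PDPN and VIM, also says little about maturity. GATA1 and THRA had no entry under their names. The series holds no immature testis, so the level of AMH before puberty was not measured here.

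Secreted products and receptors of Sertoli cells gave a mixed picture. An entry was found for 5 of 13 listed, with a median of 1.14 RPKM. PTGDS, which makes prostaglandin D2, had 34.5 RPKM, between CLU and CLDN11. TF and INHBA followed with the values above. SHBG, the source of androgen-binding protein in rat Sertoli cells, had 0.0840 RPKM and GDNF, the niche factor of spermatogonial stem cells, 0.0275 RPKM. FSHR, INHA, INHBB, KITLG, DHH, CTSL, CST9L and DEFB119 had no entry under their names. FSHR and SOX9, which define the Sertoli cell, could thus not be read, and the naming of the 6 members as Sertoli genes rests on what is known of them. None of the 6 is made in Sertoli cells alone.

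Markers of other testis cells were read in the same column. Germ cell genes led, with PRM1, a protamine that packs sperm DNA, at 7177 RPKM, 106 times CLU, and TNP1, a transition protein of spermatids, at 1678 RPKM. The earlier germ cell genes DDX4 and DAZL had 27.0 and 21.6 RPKM. All 4 germ cell genes with an entry, of 6 listed, exceeded 1 RPKM, against 63.8% of all symbols, with a median of 852 RPKM. INSL3, the insulin-like hormone of Leydig cells, had 404 RPKM, 5.94 times CLU. The steroid genes CYP11A1 and STAR had 5.63 and 4.91 RPKM, and 3 of 6 Leydig cell genes had an entry, with a median of 5.63 RPKM. Of 6 genes of peritubular myoid cells 3 had an entry, ACTA2 with 19.4 RPKM, TAGLN with 6.05 RPKM and CNN1 with 2.21 RPKM, and their median was 6.05 RPKM. The macrophage genes CD163 and CD68 had 2.13 and 0.913 RPKM, the 2 with an entry of 4 listed, with a median of 1.52 RPKM. None of the 4 endothelial genes listed had an entry under its name. In bulk tissue, fewer Sertoli cells and less RNA per cell cannot be told apart. How much of GATA4, CLU or AMHR2 came from cells other than Sertoli cells was not tested.

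**Figure D4:**
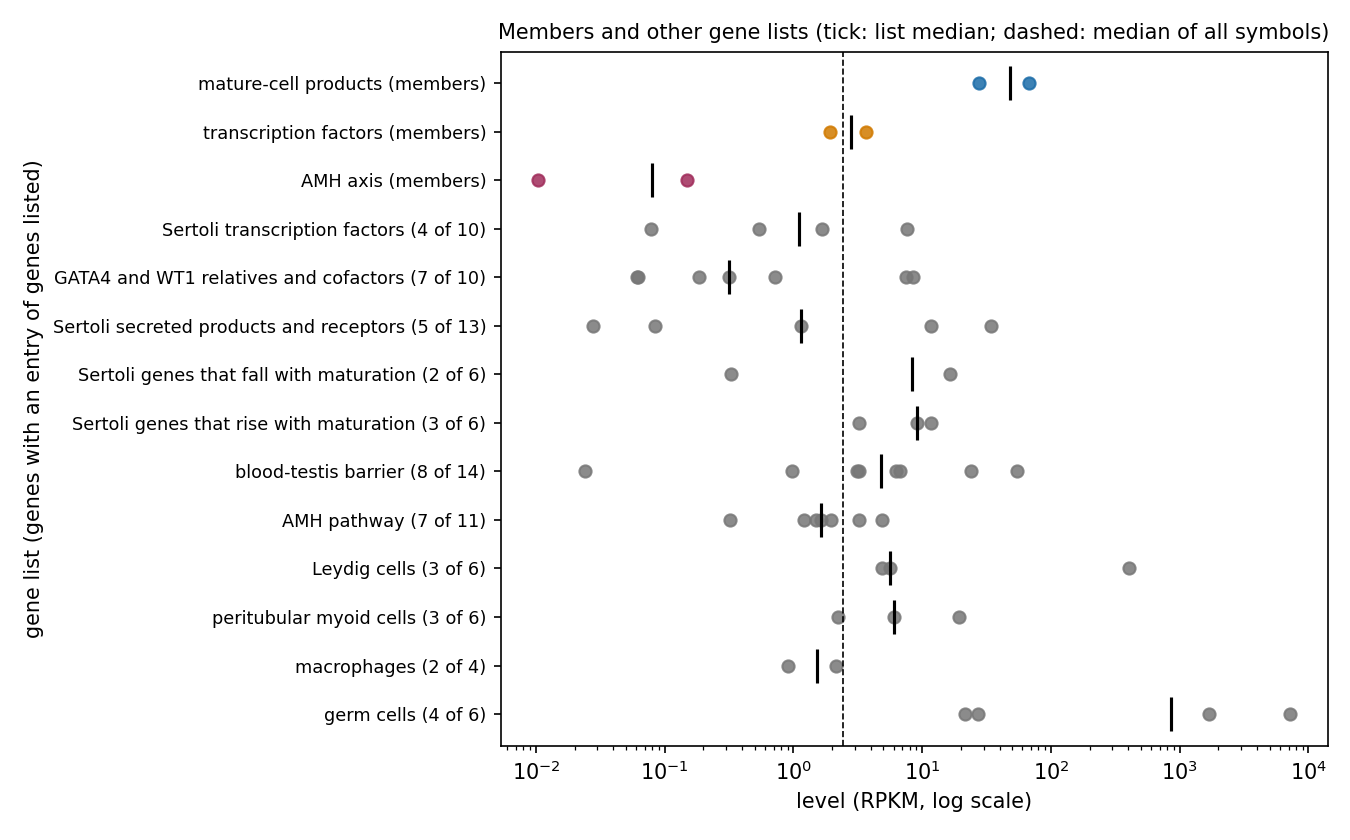
Level in RPKM on a log axis (horizontal) of the members by kind (coloured) and of other gene lists, not all of them (grey, vertical axis, with the number of genes with an entry of those listed). Black ticks are list medians and the dashed line is the median of all symbols, 2.44 RPKM. AMH, at 0.148 RPKM, and AMHR2, at 0.0104 RPKM, lie left of the median of each other list plotted here, and the germ cell genes reach furthest right, to 7177 RPKM. The claudin and TGF-beta ligand lists, with medians of 0.106 and 0.114 RPKM, are not plotted, and AMH is above both medians.

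The table holds gene IDs of 2 kinds, and the AMH axis differs from the other members in this as well. AMH and AMHR2 carry Ensembl gene IDs, and the other 4 members carry IDs that start with PR0009. Of 2656 protein-coding entries with Ensembl IDs 27.1% were at 1 RPKM or more, with a median of 0.223 RPKM. Of 14083 with the other IDs 67.0% were, with a median of 2.34 RPKM. AMH was near the median of its kind and AMHR2 far below it. The type I receptors and the other type II receptors set beside AMHR2 all carry PR0009 IDs. CLDN11, CLDN10, CLDN16 and CLDN18 do so too. CLDN3, CLDN7, CLDN14, CLDN20 and the entry named CLDN6 or CLDN9 carry Ensembl IDs. GATA2, ZFPM1 and BASP1 also carry Ensembl IDs, while GATA6, ZFPM2, WTAP and PAWR carry PR0009 IDs. Both kinds occur among the TGF-beta family ligands. What distinguishes the IDs is not given in the sources used here, and its part in the levels was not tested.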

How the data were processed

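Per the labels' protocols, total RNA was isolated from testis with the miRNeasy kit, and libraries followed a directional mRNA protocol with a TruSeq small RNA kit. Bowtie, TopHat and Cufflinks appear in the submitters' processing notes, with neither version nor role. The genome build is not given in the sources used here. The deposited values are RPKM per transcript, above 0 alone, computed by the authors and given in 1 column for 2 labelled replicates. The values come without read counts, so depth is unknown. Entries of snRNA and snoRNA held 90.1% of the summed RPKM, which does not touch ratios between genes.

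Protein-coding entries were named from the table. LOC numbers were turned into names, and into nothing else, with RefSeq genes of assembly calJac240_pri (6593 entries matched, 506 not). Another 31 species-suffixed symbols were shortened, and 48 unnamed entries were named through the Ensembl gene table. Of the members, 3 were named in the table and 3 through LOC numbers. RPKM was summed per symbol, and symbols were ranked. Naming by table name or LOC number, the sums and the ranks were tested on simulated data. Naming through species suffixes or the Ensembl gene table was not. The members and 14 lists were chosen with earlier results of these data known, and 2 TGF-beta family lists were added after the members' values were seen. The text names all members and AMH pathway genes, and the symbols next to each member in rank. Of each other list it names the 4 highest and those under 1 RPKM. The TGF-beta family ligands are an exception, of which only those at 1 RPKM or more are named, besides BMP15 as a symbol next in rank. Any gene beyond this rule was picked with its value in view. Alternatives tried were the highest or mean entry, the table's own names, every biotype, a scale summing to 1000000, limits of 0.1 and 5 RPKM or none, group medians, ranks among symbols at 1 RPKM or more, missing genes set to 0 and, added later, 3 species-coded names resolved. One listed gene is not reported here. The small RNA tables were not used. No gene or protein sequence was used here. Computations used pandas 2.3.3 and numpy 2.4.6 under Python 3.11.15, with figures by matplotlib 3.10.9.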

Additional observations from a re-analysis of the deposited data

How the results depend on the processing

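The order of the 3 kinds of gene was the same under every alternative run that gave a value. WT1 was 2.83 RPKM by its highest entry and 1.84 RPKM by the mean of its entries, which changes its order with GATA4. The ratio of mature-cell products to transcription factors was then 20.2, and that of transcription factors to the AMH axis 29.9, by highest entries. At a limit of 5 RPKM 2 members were detected. With the table's own names, CLDN11, WT1 and AMH gave no value. List medians with missing genes set to 0 were 1.22 RPKM for the AMH pathway, 0.502 for the blood-testis barrier, 0 for Sertoli transcription factors, 0 for secreted products, 2.46 for Leydig cells, 1.11 for peritubular myoid cells, 0.457 for macrophages and 24.3 for germ cells, since 0 enters for each gene without a named entry. By highest entry they were 1.50 for the AMH pathway, 4.56 for the barrier, 0.924 for Sertoli transcription factors and 849.7 for germ cells. With 3 species-coded names of listed genes resolved, an alternative added after the values were seen, the barrier median was 6.28 RPKM and that of Sertoli transcription factors 1.66 RPKM, because more genes entered. No paired analysis was possible because each dataset is 1 column, and no replicate could be left out. Depth is unknown, which limits AMHR2 and AMH most.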
